A study of Rattus norvegicus with 9 samples.

Results

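Collagen processing and brittle bone genes are 10 genes that were picked by name for their known part in the maturation of collagen or in osteogenesis imperfecta, the brittle bone disease. The choosing rule is a list of names and uses no measured value. These genes and the other lists used below were, however, chosen with earlier results of these data known. Their shares of calls are therefore not those of an independently chosen list. They are Serpinf1, Serpinh1, Crtap, Ppib, Fkbp10, Plod1, Plod2, Lox, Bmp1 and Tmem38b, and all 10 were found by symbol among the 22589 genes listed for each rat. RNA of the left tibia was sequenced in 9 female Sprague-Dawley rats, 3 from each of 3 groups of 6, which were bought at 9 weeks of age and killed 24 weeks after their operation. Rats of the Sham group were operated on but kept their ovaries. Rats of the NE/Ovx group had both ovaries removed and did not exercise. Rats of the RE/Ovx group had both ovaries removed and climbed a ladder with a load on the tail for 12 weeks, after 2 weeks of adaptation. The comparison of NE/Ovx with Sham asks about the loss of the ovaries, and that of RE/Ovx with NE/Ovx about resistance exercise after it. A trained group with intact ovaries is not analysed here, so RE/Ovx against Sham holds both differences at once.

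Type I collagen, the main protein of bone, is made as long chains that are modified, folded and exported by the endoplasmic reticulum and then trimmed and joined into fibrils outside the cell. The lysyl hydroxylases Plod1 and Plod2 add hydroxyl groups to lysines of the chains. Crtap and Ppib form a complex with the prolyl hydroxylase P3h1 that modifies a proline of the chains and helps them fold, while Serpinh1 (the collagen chaperone HSP47) and Fkbp10 (FKBP65) hold the folded molecule. Bmp1 cuts off the propeptide at the carboxyl end, and Lox starts the covalent crosslinks between molecules. Serpinf1 encodes the secreted pigment epithelium-derived factor, and Tmem38b the potassium channel TRIC-B of the endoplasmic reticulum. Inherited faults in most of these genes make human bone fragile.

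The libraries came from whole bone freed of soft tissue, and each held markers of bone, cartilage, fat, marrow and skeletal muscle, though not every listed marker. Fewer cells of a type and less RNA per cell therefore cannot be told apart in any value here. Depth ran from 12297992 to 16671533 counts per library. No library was identical to another in any of 36 pairs (r between 0.959 and 0.984 across genes). Of 8 osteoblast markers, among them Bglap, Alpl and Ibsp, all were detected. Their summed level in CPM (read counts scaled to the effective library size) was 1159 to 2134 in Sham rats. It was 1715 to 2621 in NE/Ovx rats and 1953 to 2858 in RE/Ovx rats. Against Sham, 7 of the 8 had a positive and 1 a negative log2 fold change in each ovariectomized group. Mean levels in Sham, NE/Ovx and RE/Ovx rats were 84.8, 279 and 316 CPM for Bglap and 625, 555 and 549 CPM for Ibsp. Genes with too few counts were left out of the tests, which kept 14520 genes and 9 of the 10 named ones. Crtap had 0 to 4 counts per library, 18 in all, and was not tested. Its FPKM imply a length of 841 bases in the annotation behind the counts, and whether that model covers the whole gene is not known here, so its counts are not read as a low level.

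The 250 bases before the annotated start of transcription were available for 7 of the 10 genes (RefSeq, assembly GRCr8, which is another build than the Rnor_6.0 of the counts), with no entry for Fkbp10, Lox and Bmp1. The upstream sequences of 3 genes are shown, 2 whose level was higher after ovariectomy and Tmem38b, whose level was lower in RE/Ovx rats. Each is written 5′ to 3′ on the strand of the gene. Capitals mark exact matches on either strand to the TATA box (TATAAA), the CCAAT box, the GC box (GGGCGG), the core of a hypoxia response site (ACGTG) and the repeat unit of a nuclear receptor (AGGTCA), and no matches overlapped in these genes. The Serpinf1 sequence lies at chr10:60760899-60761148 (minus strand), that of Serpinh1 at chr1:163062977-163063226 (minus strand) and that of Tmem38b at chr5:73255412-73255661 (plus strand).
Serpinf1: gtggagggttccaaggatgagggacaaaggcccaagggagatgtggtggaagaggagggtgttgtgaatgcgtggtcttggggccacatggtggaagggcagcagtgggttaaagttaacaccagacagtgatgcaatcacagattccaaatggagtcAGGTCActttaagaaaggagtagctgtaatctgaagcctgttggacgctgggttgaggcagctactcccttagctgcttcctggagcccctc
Serpinh1: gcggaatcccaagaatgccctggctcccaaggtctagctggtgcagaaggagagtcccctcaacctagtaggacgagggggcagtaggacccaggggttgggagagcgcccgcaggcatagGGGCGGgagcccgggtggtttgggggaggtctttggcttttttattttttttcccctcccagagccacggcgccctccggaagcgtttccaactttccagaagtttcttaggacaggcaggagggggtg
Tmem38b: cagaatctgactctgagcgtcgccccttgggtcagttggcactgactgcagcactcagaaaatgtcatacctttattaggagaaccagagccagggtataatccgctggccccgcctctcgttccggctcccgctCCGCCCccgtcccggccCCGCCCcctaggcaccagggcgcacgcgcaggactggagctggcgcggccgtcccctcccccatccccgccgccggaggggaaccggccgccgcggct
The Serpinf1 window held 1 match, AGGTCA at position -92 counted from the start, and no GC box. The Serpinh1 window held a GC box at -129, and that of Tmem38b held 2 on the opposite strand at -115 and -98, where they read CCGCCC. A GC box was in the windows of 6 of the 7 genes and in 30.5% of 33469 rat promoters of the same length. AGGTCA was in those of Serpinf1 and Plod1 and in 14.1% of promoters. The G and C content was 53.2% for Serpinf1, 60.4% for Serpinh1 and 68.8% for Tmem38b, with a median of 51.2% over all promoters. It was 57.2% for Crtap, 65.6% for Plod1, 68.4% for Ppib and 74.8% for Plod2. The part of this base composition in the share of GC boxes was not tested. A match describes the letters and not binding.

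Compared with the Sham group, the levels of Serpinf1, Lox and Serpinh1 were higher in the NE/Ovx group by 2.84-fold, 2.73-fold and 2.08-fold, and those of Fkbp10, Bmp1 and Plod1 by 1.70-fold, 1.46-fold and 1.38-fold. Only Serpinf1, Lox and Serpinh1 passed a Benjamini-Hochberg adjusted p of 0.05 over the 14520 genes (edgeR quasi-likelihood test), so 3 of 9 tested genes rose and 0 fell, where 1.23% of all tested genes were called. All 6 passed the thresholds of the study (a fold change over 1.2 or under 0.83 and an unadjusted p under 0.05), as did 17.9% of all tested genes. The Sham and NE/Ovx rats did not overlap for these 6 genes or for Tmem38b, which was lower, a pattern found in 25.3% of all tested genes. The median log2 fold change of the 9 genes was 0.55, beside 0.0029 for all tested genes. The 3 calls rested on few rats. Serpinf1 no longer passed when Sham rat 12, Sham rat 7, NE/Ovx rat 8 or NE/Ovx rat 9 was left out (edgeR adjusted p up to 0.0983), nor did Serpinh1 without any of the 6 rats but NE/Ovx rat 6 (up to 0.135) or Lox without any 1 of the 6 (up to 0.118).

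**Figure D1:**
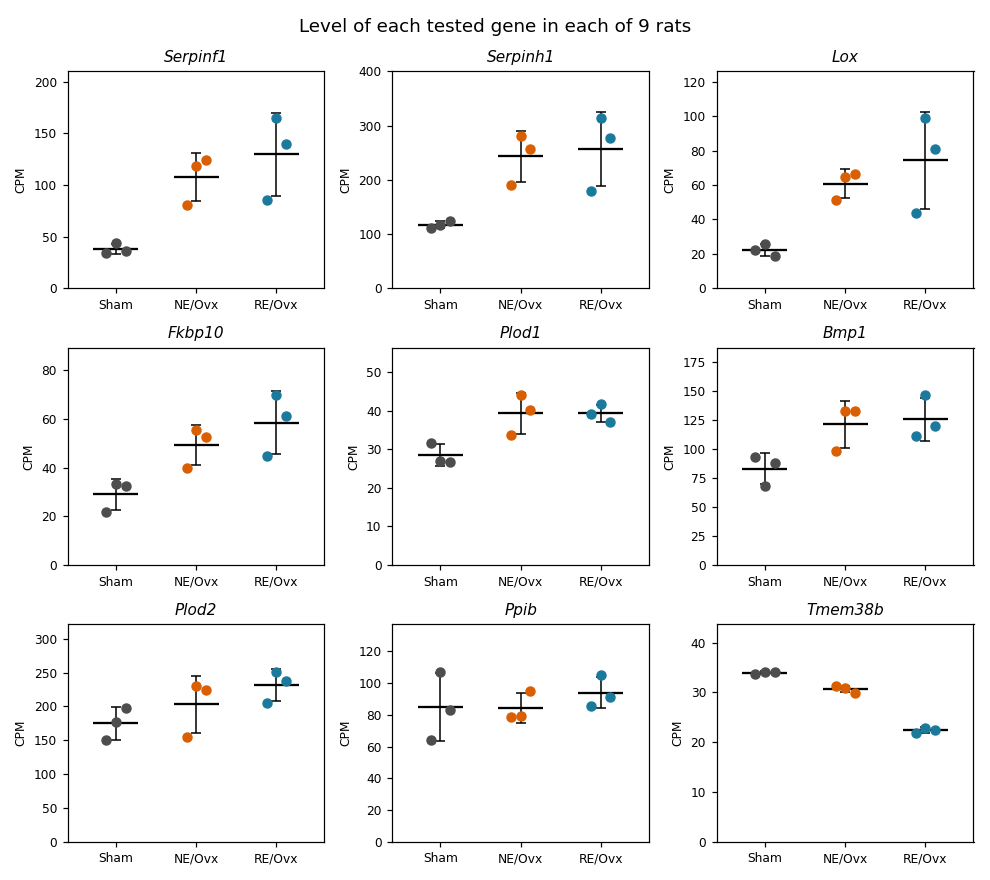
Level in CPM of each of the 9 tested genes (1 panel per gene, axes from 0) in the 3 rats of each group; points are rats, horizontal lines group means and bars the SD. Serpinf1, Serpinh1 and Lox of every ovariectomized rat lie above every Sham rat, Ppib overlaps in all groups, and the 3 groups of Tmem38b lie apart.

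Serpinh1, the chaperone that binds folded procollagen, was at 111, 116 and 123 CPM in Sham rats 12, 7 and 8, at 191, 281 and 256 CPM in NE/Ovx rats 6, 8 and 9, and at 180, 313 and 277 CPM in RE/Ovx rats 3, 5 and 8. The Sham rats lay close together, and the lowest ovariectomized rat stood well above them. Against Sham, the log2 fold change was 1.06 (standard error 0.20, edgeR adjusted p = 0.0386) for NE/Ovx and 1.14 (standard error 0.20, adjusted p = 0.0146) for RE/Ovx. Fkbp10, its partner in the endoplasmic reticulum, was at 21.7, 33.1 and 32.2 CPM in Sham rats, 39.9, 55.5 and 52.4 CPM in NE/Ovx rats and 44.5, 69.7 and 61.2 CPM in RE/Ovx rats. Every ovariectomized rat was above every Sham rat here too, with Sham rat 12 the lowest of all. For Fkbp10 the log2 fold change was 0.76 (standard error 0.21, edgeR adjusted p = 0.0915) for NE/Ovx and 1.01 (standard error 0.21, adjusted p = 0.0219) for RE/Ovx against Sham. The RE/Ovx calls of both genes were lost without RE/Ovx rat 5 or 8, with an adjusted p of up to 0.0602 for Serpinh1 and 0.0914 for Fkbp10.

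Ppib, the cyclophilin of the prolyl hydroxylase complex, was at 64.2, 107 and 83.3 CPM in Sham rats, 78.5, 79.3 and 95.2 CPM in NE/Ovx rats and 85.5, 105 and 91.5 CPM in RE/Ovx rats. The groups overlapped and the widest spread was among the Sham rats. Its log2 fold change of -0.01 for NE/Ovx against Sham had a 95% interval from -0.39 to 0.37 and changed sign with the scaling (0.03 with library totals). P3h1, the enzyme that Crtap and Ppib accompany, was not among the 10 genes and was at 20.04 ± 1.93 CPM in Sham rats, 28.9 ± 4.27 in NE/Ovx rats and 31.0 ± 6.69 in RE/Ovx rats (SD, n = 3). P3h1 passed the study's thresholds against Sham in both ovariectomized groups, with log2 fold changes of 0.53 (edgeR adjusted p = 0.134) and 0.63 (adjusted p = 0.0531).

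Plod1, the lysyl hydroxylase of the helix, was at 31.7, 27.1 and 26.8 CPM in Sham rats, 33.7, 44.1 and 40.2 CPM in NE/Ovx rats and 39.2, 41.6 and 37.1 CPM in RE/Ovx rats. The gap between the highest Sham rat and the lowest NE/Ovx rat was small. Plod1 differed by a log2 fold change of 0.46 (standard error 0.12) for both ovariectomized groups against Sham, with an edgeR adjusted p of 0.0846 for NE/Ovx and 0.0455 for RE/Ovx. The latter call was lost without Sham rat 7 or 8 or any of the 3 RE/Ovx rats (adjusted p up to 0.167). Plod2, the lysyl hydroxylase of the chain ends, was at 150, 177 and 198 CPM in Sham rats, 155, 230 and 224 CPM in NE/Ovx rats and 205, 251 and 238 CPM in RE/Ovx rats. The RE/Ovx rats lay above the Sham rats, while NE/Ovx rat 6 lay among the latter. For Plod2 the log2 fold change was 0.21 (95% interval -0.14 to 0.57) for NE/Ovx and 0.40 (0.05 to 0.76, edgeR adjusted p = 0.145) for RE/Ovx against Sham. Within a rat, the log2 ratio of Plod2 to Plod1 FPKM (fragment counts scaled for gene length and depth) was 2.27 ± 0.34 in Sham, 2.01 ± 0.14 in NE/Ovx and 2.21 ± 0.15 in RE/Ovx rats (SD, n = 3), and the groups overlapped in every comparison (exact two-sided permutation test, p between 0.2 and 0.8).

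Of the enzymes that act outside the cell, Lox was at 22.1, 25.9 and 18.6 CPM in Sham rats, 51.0, 64.6 and 66.4 CPM in NE/Ovx rats and 43.5, 98.9 and 81.0 CPM in RE/Ovx rats. RE/Ovx rat 3 was the lowest of the 6 ovariectomized rats and still above every Sham rat. For Lox the log2 fold change was 1.45 (standard error 0.26, edgeR adjusted p = 0.0341) for NE/Ovx and 1.74 (standard error 0.27, adjusted p = 0.0113) for RE/Ovx against Sham. Bmp1, the procollagen C-proteinase, was at 93.3, 67.9 and 87.8 CPM in Sham rats, 97.7, 133 and 133 CPM in NE/Ovx rats and 111, 146 and 119 CPM in RE/Ovx rats. The lowest NE/Ovx rat was close to the highest Sham rat. Its log2 fold change was 0.55 (standard error 0.16, edgeR adjusted p = 0.112) for NE/Ovx and 0.60 (standard error 0.16, adjusted p = 0.0514) for RE/Ovx against Sham.

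Serpinf1, which is secreted and whose loss causes a brittle bone disease with poorly mineralized matrix, was at 34.2, 43.7 and 35.7 CPM in Sham rats, 80.8, 118 and 124 CPM in NE/Ovx rats and 85.9, 165 and 140 CPM in RE/Ovx rats. Every ovariectomized rat stood far above every Sham rat. The log2 fold change was 1.51 (standard error 0.24, edgeR adjusted p = 0.0240) for NE/Ovx and 1.78 (standard error 0.24, adjusted p = 0.0081) for RE/Ovx against Sham. Against Sham, the RE/Ovx calls of Serpinf1 and Lox were kept whichever of the 6 rats was left out, with adjusted p of at most 0.0372 and 0.0485.

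Tmem38b, a channel that balances the charge of calcium leaving the endoplasmic reticulum, was at 33.7, 34.1 and 34.1 CPM in Sham rats, 31.2, 30.9 and 29.9 CPM in NE/Ovx rats and 21.8, 22.9 and 22.5 CPM in RE/Ovx rats. No rat of a group reached the level of a rat of another group, with the Sham rats highest and the RE/Ovx rats lowest. The spread between rats (0.747% to 2.53% of the mean) was below the 4.69% to 5.55% that counting alone gives at 300 to 496 counts per library, so rats cannot be called this alike. The log2 fold change was -0.15 (standard error 0.08, edgeR adjusted p = 0.35) for NE/Ovx against Sham, -0.45 (standard error 0.08, adjusted p = 0.92) for RE/Ovx against NE/Ovx and -0.60 (standard error 0.08, adjusted p = 0.0091) for RE/Ovx against Sham. Only the last passed the adjusted threshold, and it did so whichever of the 6 rats was left out (adjusted p at most 0.0462). Tmem38a, the relative of Tmem38b known from muscle, was at 40.8, 35.1 and 13.3 CPM in Sham rats, 31.2, 24.8 and 25.8 CPM in NE/Ovx rats and 14.9, 20.1 and 12.6 CPM in RE/Ovx rats. The summed level of 8 skeletal muscle markers, among them Ckm and Acta1, was 5390, 4703 and 1649 CPM in the same Sham rats, 4409 to 4991 in NE/Ovx rats and 1637 to 2652 in RE/Ovx rats. The part of muscle in the values of Tmem38b was not tested.

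When RE/Ovx rats were set against Sham rats, 5 of the 9 tested genes rose (Serpinf1, Lox, Serpinh1, Fkbp10 and Plod1) and 1 fell (Tmem38b) at an edgeR adjusted p under 0.05, where 8.06% of all tested genes were called. By the study's thresholds 7 passed as higher and 1 as lower, beside 23.2% of all tested genes. The groups did not overlap for these 8 genes, beside 27.8% of all tested genes. The median log2 fold change was 0.60 for the 9 genes and -0.01 for all tested genes. The count of 6 fell to 3 (Serpinf1, Lox and Tmem38b) without RE/Ovx rat 5 or without rat 8. Both contrasts against Sham used the same 3 Sham rats, so their values are not independent.

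Among ovariectomized rats, none of the 9 genes differed with resistance exercise at the adjusted threshold, and Tmem38b alone passed the study's thresholds, with a lower level in trained rats. At an adjusted p under 0.05, edgeR called 0 of the 9 genes and 0% of all tested genes (767 of which had an unadjusted p under 0.05), while DESeq2 called 5 genes and limma 0, none of them among the 9. The study's thresholds were passed by Tmem38b, at 0.73-fold (edgeR unadjusted p = 0.000306, the fourth smallest of 14520), and by 4.68% of all tested genes. Its groups were also the only ones of the 9 that did not overlap, beside 11.6% of all tested genes. The log2 fold change was 0.27 (95% interval -0.24 to 0.79) for Serpinf1, 0.29 (-0.27 to 0.86) for Lox, 0.08 (-0.36 to 0.52) for Serpinh1, 0.25 (-0.21 to 0.70) for Fkbp10 and -0.00094 (-0.27 to 0.27) for Plod1. These intervals leave room for changes in both directions. RE/Ovx rat 3 had the lowest level of its group for every tested gene of the 9 but Plod1. Without it, Serpinf1 (0.50) and Lox (0.57) also passed the study's thresholds, with an edgeR adjusted p of 0.638 and 0.632. The share of all tested genes past these thresholds was then 6.98%. The NE/Ovx rats stand in this contrast and in that against Sham, so the values of Tmem38b in both share those rats.

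**Figure D2:**
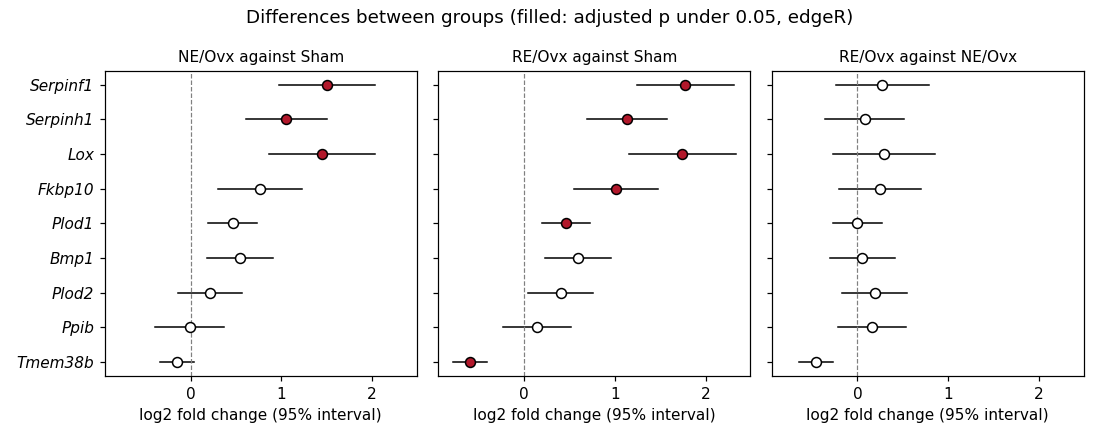
Log2 fold change of the 9 tested genes (rows) in 3 comparisons (panels) with 95% intervals from the edgeR fit of all 9 rats; filled points had an adjusted p under 0.05. Against Sham, 3 genes of the NE/Ovx group and 6 of the RE/Ovx group are filled, and between the ovariectomized groups none is, with Tmem38b alone having an interval that leaves out 0.

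Levels were set side by side between genes only as FPKM, which is per length. In Sham rats Ppib was highest (98.6 ± 23.95 FPKM, SD, n = 3), followed by Serpinh1 (55.8 ± 3.75), Plod2 (46.5 ± 6.90), Serpinf1 (26.1 ± 3.21), Bmp1 (20.04 ± 3.43), Tmem38b (12.4 ± 0.22), Fkbp10 (11.1 ± 2.43), Plod1 (9.62 ± 0.93) and Lox (4.12 ± 0.61). The neighbours Serpinh1 and Plod2, Tmem38b and Fkbp10, and Fkbp10 and Plod1 overlapped over the 3 rats and the other neighbours did not. In both ovariectomized groups Serpinh1 stood first (119 ± 23.4 FPKM in NE/Ovx and 128 ± 34.9 in RE/Ovx rats), before Ppib (101 ± 10.05 and 114 ± 11.8) and Serpinf1 (76.3 ± 16.5 and 93.9 ± 29.2). Serpinh1 overlapped Ppib in both of these groups, so that their order is not settled there. Serpinf1 passed Plod2 in mean level in both, with overlapping ranges. Tmem38b moved from the sixth to the ninth place, with 11.5 ± 0.37 FPKM in NE/Ovx and 8.51 ± 0.29 in RE/Ovx rats. Its range lay above that of Plod1 in Sham rats (12.2 to 12.6 against 8.99 to 10.7 FPKM). These ranges barely met in NE/Ovx rats, and in RE/Ovx rats Tmem38b lay below Plod1 without overlap. Its NE/Ovx range of 11.0 to 11.7 FPKM overlapped that of Lox (9.75 to 12.5), and its RE/Ovx range of 8.18 to 8.73 FPKM did too (Lox 8.34 to 19.0), so the ninth place is not settled. Crtap had group means of 0.106 to 0.208 FPKM, which are not ranked because of the doubt about its gene model.

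**Figure D3:**
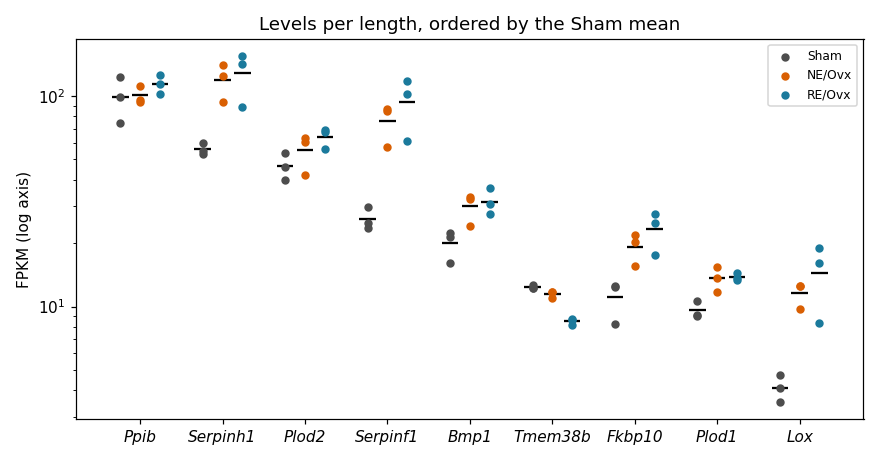
FPKM (log axis) of the 9 tested genes in each of 9 rats, ordered by the Sham mean; points are rats and lines group means. Ppib leads in Sham rats, Serpinh1 has the highest mean in both ovariectomized groups, and Tmem38b is at 12.4 FPKM in Sham and 8.51 in RE/Ovx rats on average.

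Whether the processing genes kept pace with their substrate was asked from ratios within a rat. Col1a1, the main chain of type I collagen, was at 864 to 1271 FPKM in Sham rats, 2489 to 4141 in NE/Ovx rats and 2694 to 4397 in RE/Ovx rats. Its log2 fold change in CPM was 1.70 (edgeR adjusted p = 0.0235) for NE/Ovx and 1.74 (adjusted p = 0.0102) for RE/Ovx against Sham. Col1a2, the other chain, had far lower and uneven FPKM, at 20.8 to 127 in Sham rats, 62.4 to 186 in NE/Ovx rats and 180 to 253 in RE/Ovx rats. Within a rat the FPKM of Col1a1 was 6.92 to 44.0 times that of Col1a2. The reason for this spread was not tested, so the values of Col1a2 are not read as a low level. The ratio of each gene was taken to the mean log2 FPKM of both chains, in which the uneven Col1a2 weighs as much as Col1a1, and, as an alternative, to Col1a1 alone. Since both chains had higher means in NE/Ovx than in Sham rats, a gene whose own level does not differ is lower relative to them, and the median difference over 14458 genes with an FPKM above 0 in every rat was -1.26 on the log2 scale for both chains and -1.68 for Col1a1. Relative to both chains, Serpinf1 differed by 0.23, Lox by 0.19, Serpinh1 by -0.22, Fkbp10 by -0.49 and Ppib by -1.24 between NE/Ovx and Sham rats, with overlapping groups (exact two-sided permutation test, p between 0.2 and 0.9). The differences were -0.72 for Bmp1, -0.80 for Plod1, -1.06 for Plod2 and -1.41 for Tmem38b, and these 4 of 9 did not overlap (exact permutation p = 0.1), as did not 62.1% of the 14458 genes. Relative to Col1a1 alone, those of Serpinf1 (-0.20) and Lox (-0.23) overlapped and the other 7 did not, from -0.65 for Serpinh1 and -0.91 for Fkbp10 to -1.67 for Ppib and -1.84 for Tmem38b, beside 88.8% of the 14458 genes. Whether Serpinh1, Fkbp10 and Ppib overlapped thus turned with the reference, and the 7 are no larger a share than that of all genes. With 3 rats against 3 an exact permutation p cannot be below 0.1, and after adjustment over 60 ratio tests none was below 0.25. Between RE/Ovx and NE/Ovx rats, only the ratio of Tmem38b to both chains did not overlap (-1.003, exact permutation p = 0.1), beside 9.91% of the 14458 genes, and that to Col1a1 overlapped (-0.49), as for all 9 genes, beside 3.33% of genes without overlap. The sign turned with the reference for most of the genes, with -0.30 to both chains and 0.21 to Col1a1 for Serpinf1 and -0.33 and 0.18 for Lox, so no direction is given for them.

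**Figure D4:**
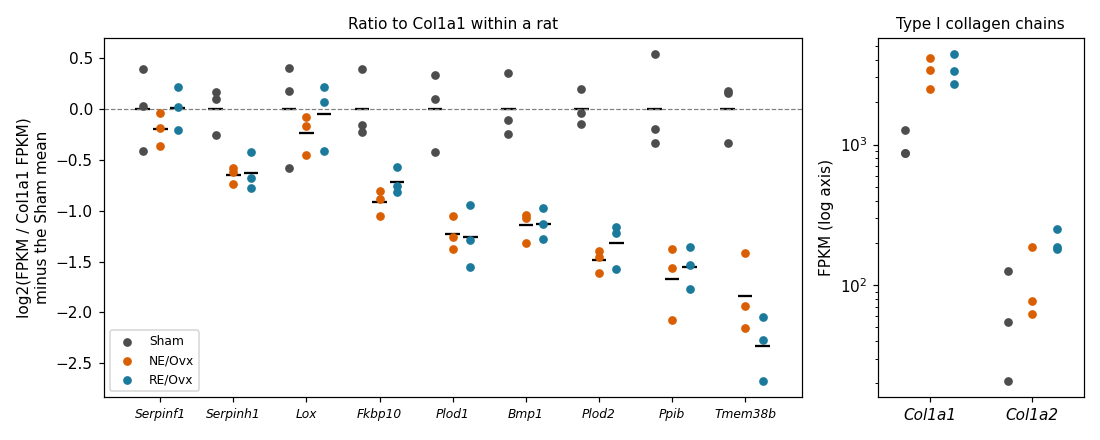
Left, log2 ratio of the FPKM of each gene to that of Col1a1 within a rat, minus the Sham mean; points are rats and lines group means. Right, FPKM (log axis) of both type I collagen chains. Serpinf1 and Lox of ovariectomized rats lie among the Sham rats, and the other 7 genes lie below them, as do most of all genes, since Col1a1 itself was higher.

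Among 10660 genes whose mean log2 CPM was 3 or more, Lox had the profile most like that of Serpinf1 over the 9 rats, and Serpinf1 that most like Lox (root-mean-square difference 0.116 of centred log2 CPM). The next nearest to Serpinf1 were Sparc (0.154), which encodes osteonectin, and Cthrc1 (0.201), and the next nearest to Lox were Mmp2 (0.169) and Cpxm1 (0.183). The next nearest pairs of the 9 genes were Plod1 with Bmp1 (0.138) and Serpinh1 with Fkbp10 (0.179). The nearest to Tmem38b were Noct (0.0795), Cers6 (0.0893) and Gpd2 (0.0950). The likeness includes the group differences and is a description of 9 rats.

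The levels of Serpinf1 and Lox moved with marker genes of several cell types, whose part in the result was not tested. The summed level of 8 adipocyte markers, among them Plin1 and Adipoq, was 138 to 269 CPM in Sham, 400 to 502 in NE/Ovx and 508 to 708 in RE/Ovx rats, and all 8 had a positive log2 fold change in both ovariectomized groups against Sham. That of 8 fibroblast and tendon markers, among them Dcn and Lum, was 432 to 745, 1012 to 1450 and 788 to 2170 CPM in the same order. Its lowest RE/Ovx rat was rat 3 and its highest rat 5, as for Serpinf1 and Lox. Osteoblast markers had the same lowest and highest RE/Ovx rat (1953, 2858 and 2489 CPM in rats 3, 5 and 8). None of the other lists had both, but other groups gave other matches. From NE/Ovx rat 6 to 8 to 9, Serpinf1, Lox and the adipocyte, fibroblast and tendon, osteoblast and megakaryocyte sums all rose. Among Sham rats, Lox and the adipocyte, fibroblast and tendon and erythroid sums were lowest in rat 8 and highest in rat 7. The osteoblast sum was highest in Sham rat 8 (2134 CPM). These orders of 3 rats were not tested. The summed level of 8 chondrocyte markers was 688 to 1311, 1435 to 2267 and 1872 to 2141 CPM. That of 8 B cell markers was 156 to 455, 536 to 928 and 663 to 810 CPM, and that of 8 neutrophil markers 6824 to 11708, 4983 to 5842 and 3705 to 5801 CPM. Erythroid markers summed to 7287 to 9184, 5765 to 8093 and 5870 to 7861 CPM, and megakaryocyte markers to 1005 to 1466, 814 to 977 and 867 to 1016 CPM. Of these 72 markers Gp1bb alone was at 0 in every rat.

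**Figure D5:**
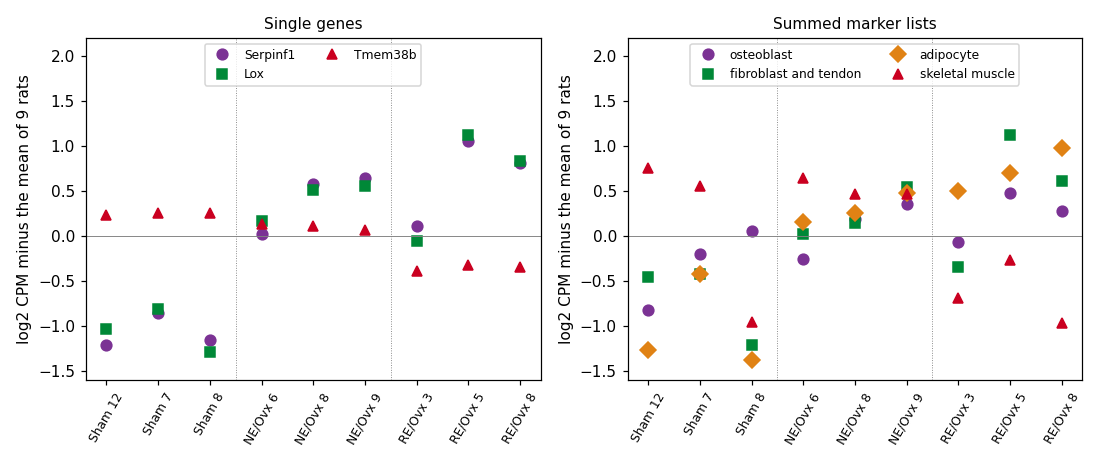
Log2 CPM of Serpinf1, Lox and Tmem38b (left) and of the summed markers of 4 cell types (right) in each of 9 rats, each minus its mean over the rats; dotted lines part the groups. Serpinf1 and Lox nearly coincide in every rat and are lowest in Sham rats, and Tmem38b is lowest in RE/Ovx rats.

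Of 56 other genes of collagen processing and brittle bone disease, 54 were listed and 52 tested. Compared with the Sham group, 5 of the 52 rose in the NE/Ovx group (edgeR adjusted p under 0.05) and 0 fell, beside 1.23% of all tested genes. The study's thresholds gave 24 higher and 0 lower, beside 17.9% of all, and the median log2 fold change was 0.35, beside 0.0029 for all. Those called were Adamts2, the procollagen N-proteinase (1.14, adjusted p = 0.0225), Col1a1, Col5a2, a chain of type V collagen (1.18, adjusted p = 0.0265), Sparc (1.40, adjusted p = 0.0331) and P4ha2, a prolyl hydroxylase subunit (0.88, adjusted p = 0.0458). Without NE/Ovx rat 8 or 9 or Sham rat 7 or 12, each of these 5 calls was lost (adjusted p up to 0.161). By step, the median log2 fold change was 1.14 for 5 fibrillar collagen chains, 0.74 for 6 crosslinking genes, 0.43 for 8 prolyl hydroxylation genes, 0.36 for 3 genes of lysyl hydroxylation and glycosylation, 0.26 for 6 propeptide processing genes and 0.49 for 8 other brittle bone genes. It was -0.04 for 9 folding genes of the endoplasmic reticulum, among them Hspa5, Calr and Fkbp9, and 0.06 for 7 export genes. The folding genes were split, with 4 positive and 5 negative log2 fold changes. Fkbp9 was at 39.3 ± 7.97 CPM in Sham and 67.1 ± 11.6 CPM in NE/Ovx rats, and Hspa5 at 365 ± 31.2 and 320 ± 39.8 CPM. Plod3, the third lysyl hydroxylase, was at 30.9 ± 3.01 CPM in Sham and 39.1 ± 0.98 CPM in NE/Ovx rats (SD, n = 3), with a log2 fold change of 0.34 (edgeR adjusted p = 0.123).

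In RE/Ovx rats against Sham rats, 14 of the 52 rose and 0 fell, beside 8.06% of all tested genes. The study's thresholds gave 25 higher and 2 lower, beside 23.2% of all, and the median log2 fold change was 0.37, beside -0.01 for all. Adamts2 (1.38, edgeR adjusted p = 0.0049), Col5a2 (1.35, adjusted p = 0.0091) and Col5a1 (1.35, adjusted p = 0.0170) were among those that rose. So were Creb3l1, a transcription factor of the collagen chains (1.07, edgeR adjusted p = 0.0160), Colgalt2, which puts galactose on collagen (0.93, adjusted p = 0.0299), Fkbp9 (0.92, adjusted p = 0.0385) and Loxl4, a relative of Lox (0.85, adjusted p = 0.0397). The calls of Col1a1, Adamts2 and Col5a2 were kept whichever of the 6 rats was left out, while those of Col5a1, Creb3l1, Colgalt2, Fkbp9, Loxl4, Sparc and P4ha2 were lost without RE/Ovx rat 5 or 8 and some without a Sham rat (adjusted p up to 0.157). The 2 lower genes were Tmem38a (-0.91, edgeR adjusted p = 0.129) and Adamts3 (-0.44, adjusted p = 0.0723), the latter chosen after its value was seen. Between RE/Ovx and NE/Ovx rats 0 of the 52 passed the adjusted threshold with edgeR (1 had an unadjusted p under 0.05), and by the study's thresholds none was higher and 1, Tmem38a, was lower (-0.78, edgeR adjusted p = 0.924).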

How the data were processed

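For each of 9 libraries the authors deposited whole-number read counts per gene and FPKM values per gene, and in every pair of libraries FPKM per count has the same ratio for each gene (relative spread at most 1.1e-07). The libraries were made from total RNA after removal of ribosomal RNA with a stranded kit. Per the submitters' processing notes, Trimmomatic, HISAT2, StringTie, Bowtie2, DESeq and the build Rnor_6.0 were used, and versions and the strand setting of the counting are not given in the sources used here. Reads of overlapping genes may therefore be mixed.

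Groups came from the sample labels, each rat is 1 replicate, and 22589 genes were listed. Counts were analysed with edgeR 4.0.16 in R 4.3.3 (filterByExpr, TMM factors, quasi-likelihood test) in 1 fit of all 9 libraries with group as the only term, and p values were adjusted by Benjamini-Hochberg over 14520 genes. The study names DESeq2 as its test, which is an alternative here. With either test, fewer genes passed the study's thresholds here than the study reports for NE/Ovx against Sham and RE/Ovx against NE/Ovx. The reason was not tested. CPM used the effective library size. Intervals are 95% intervals of that fit. Ratios used FPKM within a rat, to the mean log2 FPKM of Col1a1 and Col1a2, with an exact two-sided permutation test over rats. Scripts were tested on simulated data. Promoters were read from a RefSeq table of GRCr8 and searched with Python 3.11.15.

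Named genes were the 10 members, Col1a1, Col1a2, P3h1, Plod3 and Tmem38a, the up to 6 other listed genes with the smallest p among those called in a comparison, the gene of each list with the smallest p for NE/Ovx against Sham, and for Serpinf1, Lox and Tmem38b the 3 genes of nearest profile. Members and lists were chosen with earlier results of these data known. Alternatives were DESeq2 1.42.0, edgeR without a filter on low counts, with a minimum of 10 counts in each library, with library totals, with median-of-ratios factors or on the 2 groups compared, limma 3.58.1 with a trend on log2(FPKM + 1) or log2(FPKM + 0.1) or with an FPKM of at least 1 in 3 libraries, and leaving out each rat. Ratios were also taken from CPM and to Col1a1 alone.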

Additional observations from a re-analysis of the deposited data

How the results depend on the processing

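The number of the 9 genes called at an adjusted p under 0.05 for NE/Ovx against Sham was 3 with edgeR, 6 with DESeq2, 0 with limma on log2(FPKM + 1) and 1 on log2(FPKM + 0.1), and 0 to 2 when 1 rat was left out. Over all genes these settings called 178, 997, 25 and 53, and 9 to 181 when 1 rat was left out. For RE/Ovx against Sham it was 6, and 3 to 6 when 1 rat was left out, and over all genes 1171 with edgeR, 1931 with DESeq2, 559 with edgeR on the 2 groups, 465 and 592 with limma without a filter, and 103 without RE/Ovx rat 5 or 8. Plod1 was lost there on the 2 groups and with limma on log2(FPKM + 1). Bmp1 passed there under 7 of 15 alternatives, DESeq2 among them. Between RE/Ovx and NE/Ovx rats it was 0 under every alternative. At the study's thresholds that comparison gave 1 gene, and 1 to 3 when 1 rat was left out. The share of all tested genes was 4.68%, and 3.27% to 6.98% when 1 rat was left out. The sign of Ppib for NE/Ovx against Sham turned to 0.029 with library totals, to 0.054 with limma on log2(FPKM + 1), filtered or not, and to 0.055 on log2(FPKM + 0.1), and ran from -0.19 to 0.18 when 1 rat was left out. Plod1 for RE/Ovx against NE/Ovx turned to 0.0036 with DESeq2, 0.0048 with median-of-ratios factors or the 2 groups alone, 0.021 with library totals, 0.027 with limma on log2(FPKM + 1), filtered or not, and 0.030 on log2(FPKM + 0.1), and ran from -0.10 to 0.088 when 1 rat was left out. Leaving out 1 rat also turned Serpinh1 (-0.084 to 0.28) and Bmp1 (-0.083 to 0.14) for RE/Ovx against NE/Ovx and Ppib for RE/Ovx against Sham (-0.024 to 0.34). With limma on log2(FPKM + 1) without a filter, each of the 8 calls for NE/Ovx against Sham was lost (Serpinf1, Serpinh1, Lox, Col1a1, Adamts2, Col5a2, Sparc and P4ha2), and on log2(FPKM + 0.1) all but those of Serpinf1, Adamts2 and Col5a2. For RE/Ovx against Sham both lost Col1a1, P4ha2, Colgalt2, Fkbp9 and Loxl4, and the fit of the 2 groups alone lost the last 4 of these there and P4ha2 for NE/Ovx. The ratios to Col1a1 in place of both chains moved by over 1 SD for Bmp1 (NE/Ovx against Sham) and for 7 genes between RE/Ovx and NE/Ovx rats. None of the values that changed sign was called, and where a cause is not given it was not tested. Library totals moved the median of all genes by at most 0.061 on the log2 scale. No paired analysis was possible because the groups share only 1 rat number, 8, and nothing ties rats of the same number to each other.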
